A study of Mus musculus with 4 samples.

Results

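The cytosolic ribosomal protein genes were followed in RNA from colonies of mouse blood progenitors. Members were the table's rows whose symbol starts with Rpl or Rps and a digit, or is Rplp0, Rplp1, Rplp2 or Rpsa, without the Rps6k kinases, and whose mean over the 4 libraries was at least 1 normalized count. Of 14323 rows, 93 matched the symbols and 87 passed the level, among 11370 genes that passed it in all. The 87 comprised 77 ribosomal proteins proper, 46 of the large and 31 of the small subunit, and 10 others that were kept apart, namely paralogs, pseudogenes, near-copies and the partner protein Rps19bp1. The remaining 6 rows, Rpl14-ps1, Rpl31-ps12, Rpl37rt, Rpl39l, Rpl3l and Rps19-ps3, fell below the level. No expression difference was used to choose the members.

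Short-term haematopoietic stem cells (ST-HSCs), which rebuild blood for a limited time, and MPP2 cells, a multipotent progenitor, came from a C57BL/6 mouse model in which 4-hydroxytamoxifen (4OHT) switches on the leukaemia fusion MLL-ENL. Portions of 100 cells were grown for 5 to 7 days in 1 ml of 1% methylcellulose with SCF at 25 ng/ml and IL-6, IL-3 and GM-CSF at 10 ng/ml each. Each cell type was given ethanol or 0.05 μM 4OHT, and each of the 4 groups is a single library of colony RNA. All 4 groups share the model's alleles and the vehicle, since 4OHT was dissolved in ethanol. The labels name neither the promoter behind the fusion nor the age and number of mice nor any pooling. With 1 library per group a difference between a pair of libraries has no replicate check, and it carries no p-value below.

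A cytosolic ribosome joins a small subunit, which reads the mRNA, to a large subunit, which makes the peptide bond, and each protein is present mostly as a single copy. Ribosomal protein genes are therefore known to be expressed together and strongly in growing cells. Their mRNAs begin with a stretch of pyrimidines, the 5′ terminal oligopyrimidine (TOP) motif, through which mTOR and the binding protein LARP1 set their translation and stability. Blood is known to be sensitive to the dose of these proteins, as in Diamond-Blackfan anaemia, a failure of red cell production caused by loss of a single copy of a ribosomal protein gene.

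C or T runs at the annotated start were read in RefSeq promoter windows (GRCm38.p6, 250 bases before to 50 after a start). There were 67 windows for 57 of the 77 genes. An unbroken run of at least 6 C or T bases covered the annotated start in 19 of the 67 windows (28.4%), against 7.25% of all 32851 windows. Such a run can lie partly or mostly before the start, outside the mRNA. Its count is therefore not a count of TOP motifs. The sequences below run 5′ to 3′ on the gene's strand, 40 bases before the start base and 20 from it on. Capitals mark the C or T run over the start in the 6 genes with the longest runs.
Rpl7a: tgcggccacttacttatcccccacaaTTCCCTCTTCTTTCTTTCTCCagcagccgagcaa
Rpl27a: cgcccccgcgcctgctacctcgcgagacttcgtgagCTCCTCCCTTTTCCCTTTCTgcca
Rpl34: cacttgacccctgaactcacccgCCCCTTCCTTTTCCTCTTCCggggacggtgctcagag
Rpl35: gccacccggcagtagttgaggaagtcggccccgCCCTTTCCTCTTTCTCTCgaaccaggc
Rpl15: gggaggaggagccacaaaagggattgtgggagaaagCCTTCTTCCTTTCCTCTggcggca
Rpl14: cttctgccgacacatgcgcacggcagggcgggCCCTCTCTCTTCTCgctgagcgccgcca
These lie at chr2:26910767-26910826 (+), chr7:109519155-109519214 (+), chr3:130730318-130730377 (−), chr2:39005112-39005171 (−), chr14:18270967-18271026 (−) and chr9:120571477-120571536 (+), in the order printed. The runs were 21, 20, 20, 18, 17 and 14 bases long. The 3 genes with the lowest MPP2 level relative to ST-HSC in ethanol are shown next, though the place of Rpl26 is uncertain, as described below. None has such a run over its annotated start, like 38 of the 57 genes with a window. The absence of a run is therefore not particular to these 3. It also rests on the annotated position, since the Rpl13a window holds a C or T stretch just after it.
Rpl26: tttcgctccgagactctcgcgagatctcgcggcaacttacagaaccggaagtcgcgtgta
Rpl13a: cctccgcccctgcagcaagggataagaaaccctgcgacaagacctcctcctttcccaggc
Rpl24: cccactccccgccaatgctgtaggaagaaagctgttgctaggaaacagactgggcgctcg
They lie at chr11:68901526-68901585 (+), chr7:45128726-45128785 (−) and chr16:55966235-55966294 (+).

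Other short motifs were counted in the same windows. CTTTCC on the gene's strand stood within 20 bases of the start in 10 windows (14.9%) against 1.95% of all windows, and anywhere in the window in 38.8% against 14.1%. It can overlap the C or T run. CCGGAAG, on either strand, the core of the sites of ETS-family factors, was in 25 windows (37.3%) against 8.86%. TATAAA on the gene's strand was in 7.46% against 8.32%, and CACGTG, the palindromic E-box bound by MYC among others, in 11.9% against 7.15%. These are matches of letters and not evidence of binding.

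The table gave reads scaled to a common library size, named normalized counts here. The libraries held 14317891, 13647704, 13705519 and 12907412 reads, from the ST-HSC pair (ethanol, then 4OHT) and the MPP2 pair (ethanol, then 4OHT), which is the order of every set of 4 values that follows. The ribosomal RNA precursor Rn45s took 6.75%, 7.10%, 4.82% and 7.39% of reads. Myeloid RNA was abundant, in that 6 neutrophil markers summed to between 16186 and 29990 normalized counts, and 9 stem and early progenitor markers to between 139 and 210. Summed markers of mast cells and basophils were 128, 68.8, 1424 and 472, of megakaryocytes 21.5, 26.8, 463 and 436, and of red cells 0.765, 0.934, 112 and 7.22. Macrophage markers summed to 286, 690, 499 and 1217 and proliferation markers to 2202, 1751, 2141 and 1902. Of the lymphoid markers, Cd79a was at 0.160 or below, Il7r ran from 6.54 to 23.3, and others were not analysed here. The libraries of the 2 cell types also differ in sex-linked RNA. Xist stood at 0, 0.359, 872 and 597, and the Y-linked Ddx3y at 47.4, 44.6, 0 and 0. Cell type and the sex of the source animals therefore cannot be told apart in these 4 libraries.

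Ribosomal protein mRNAs were among the most abundant in every library. The 77 genes took 4.82% of the ST-HSC ethanol reads (95% exact binomial interval 4.81 to 4.83), 4.97% of the ST-HSC 4OHT reads (4.95 to 4.98), 3.86% of the MPP2 ethanol reads (3.85 to 3.87) and 3.49% of the MPP2 4OHT reads (3.48 to 3.50). Both ST-HSC shares were above both MPP2 shares, and these intervals cover counting error only. The median ribosomal protein gene stood at 539, 552, 423 and 402 normalized counts, whereas the median of all tested genes stayed between 28.8 and 29.5. Per kilobase of transcript the medians were 800, 815, 647 and 596, against 13.66 to 13.96 for all tested genes. Among the 100 most abundant genes were 11, 13, 6 and 4 ribosomal protein genes.

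Levels differed widely between the genes, and levels between genes are compared per kilobase. The mean level over the 4 libraries was highest for Rplp0, the base of the ribosomal stalk, at 2344 normalized counts per kilobase, then Rpl41, which encodes a very short peptide of the large subunit, at 2089, and Rps2, a protein near the mRNA entry of the small subunit, at 2012. Rplp0 (chr5:115559467-115563727, + strand, GRCm38, GENCODE M21) had 2114, 2305, 1740 and 1848 normalized counts, and both ST-HSC libraries were above both MPP2 libraries. Rps2 had 2433, 2304, 1745 and 1695, with the same split. Rps27, Rpl30 and Rpl22 were the lowest per kilobase at 4.72, 47.02 and 46.9. The first 2 of these share sequence with a copy, as described below. The subunits had similar levels, with medians of the mean level of 674 per kilobase for the large and 752 for the small subunit.

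**Figure D1:**
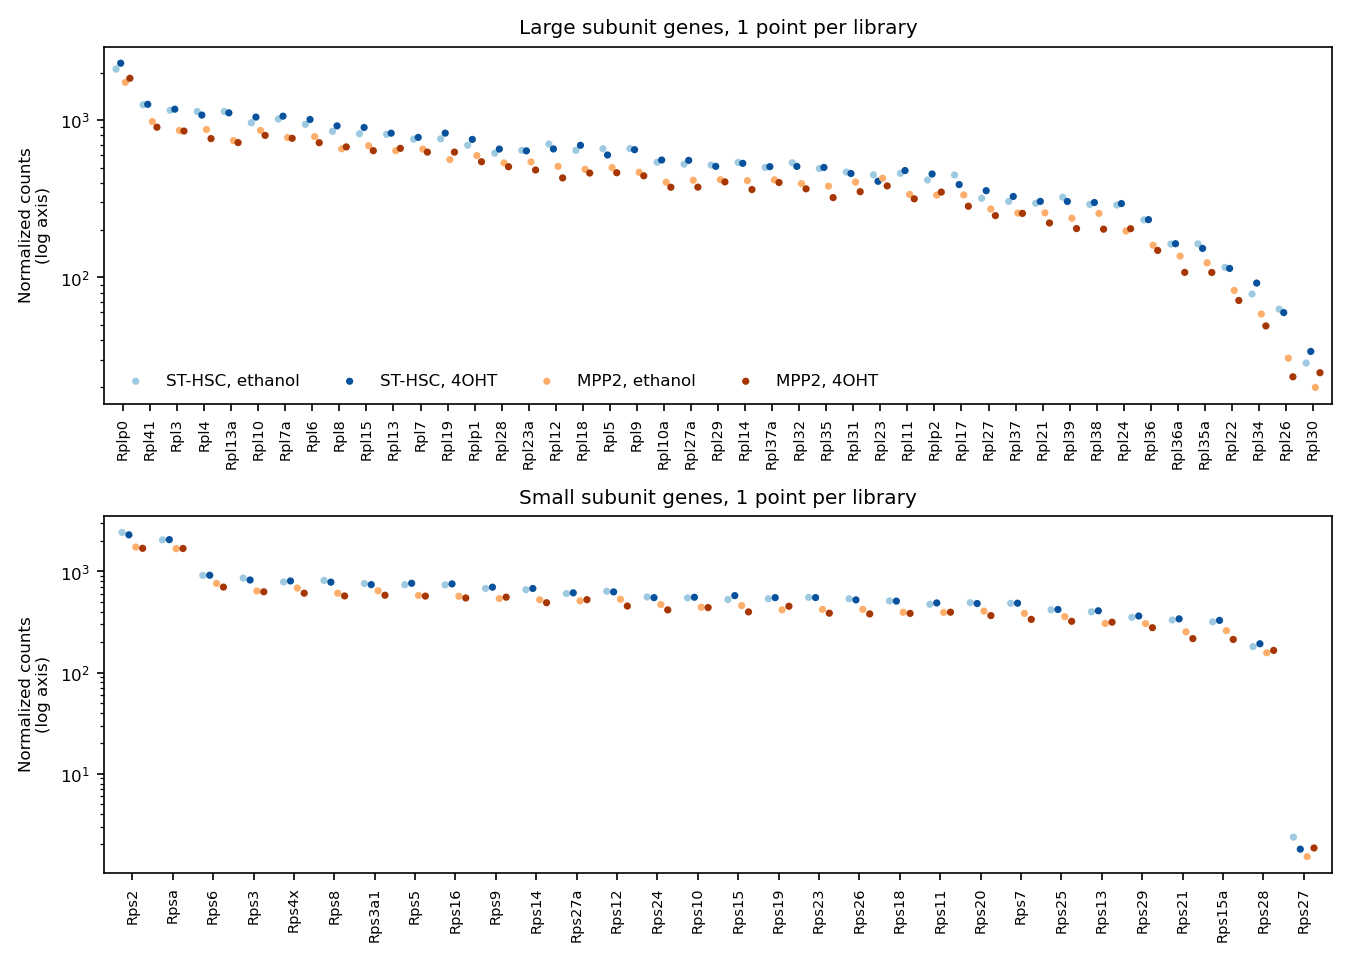
Normalized counts (log axis) of 45 large subunit genes and 30 small subunit genes, ordered by mean level, with 1 point per library and no error bars because each group is 1 library. In nearly every column both blue ST-HSC points lie above both orange MPP2 points, and Rps27 stands apart at about 2 normalized counts.

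The question of how the progenitor of origin goes with ribosomal protein mRNA was addressed by setting the MPP2 libraries against the ST-HSC libraries. All 77 genes were lower in MPP2 in ethanol and 76 were lower in 4OHT, the exception being Rps27 at about 2 normalized counts. The median log2 difference was −0.34 in ethanol and −0.45 in 4OHT, while the medians of all tested genes were −0.04 and −0.02. Of all tested genes 54% lay below 0 in ethanol and 51.8% in 4OHT, so the members' shares of 100% and 98.7% stood well above the background. Both ST-HSC libraries were above both MPP2 libraries in 75 of the 77 genes (97.4%), against 33.7% of all tested genes, and in 10 of the 10 kept apart. The exceptions were Rps27 and Rpl23. In these bulk samples fewer cells of a type and less RNA per cell cannot be told apart.

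The difference was small and even. At least 2-fold lower in MPP2 was only Rpl26, in ethanol 1 of 77 genes against 0.862% of all tested genes and in 4OHT 1 of 77 against 1.71%. None was 2-fold higher, against 6.27% and 5.39%. The 95% counting interval of the ratio lay below 1 in 76 of 77 genes in ethanol and again in 76 in 4OHT, where the background was 31.8% and 32.8%. It lay above 1 in 0 genes in either, against 27.3% and 30.1%. Intervals are narrower for genes with more reads, and members had far higher levels than the median tested gene. The shares of all tested genes are therefore not a like background for counts of intervals. The standard deviation over the 77 genes was 0.13 log2 units in ethanol and 0.17 in 4OHT, against 0.66 and 0.62 over all tested genes. Over genes outside the family with a mean of at least 100 it was 0.47 and 0.51. Without 4 members that are outweighed by a copy the family's was 0.10 and 0.11, of which counting error would give 0.03 in each. Large subunit genes had medians of −0.37 and −0.48 and small subunit genes −0.31 and −0.40.

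**Figure D2:**
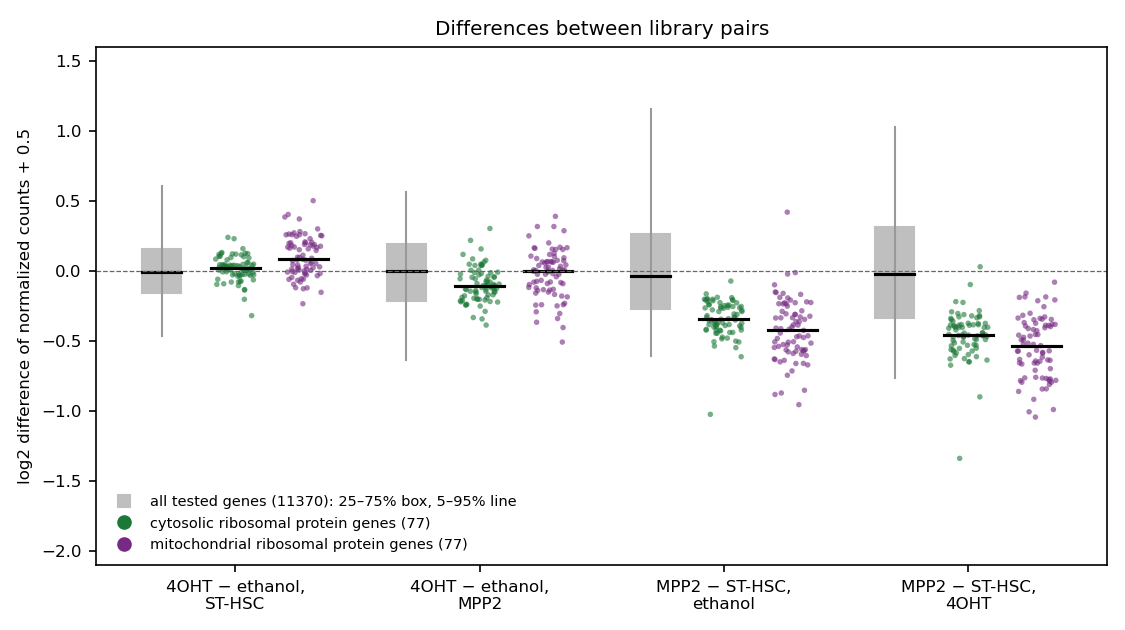
Log2 differences of normalized counts + 0.5 between 4 pairs of libraries; grey boxes and lines give the 25 to 75% and 5 to 95% ranges of the 11370 tested genes, points are single genes and black bars are medians. The cytosolic ribosomal protein genes form a narrow cloud below 0 in both MPP2 to ST-HSC pairs (medians −0.34 and −0.45), beside the mitochondrial ribosomal protein genes (−0.42 and −0.53).

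The genes at the low end in ethanol were Rpl26, Rpl13a, Rpl24, Rpl36 and Rps27. Rpl13a (chr7:45125558-45128761, − strand), a large subunit protein also known from the silencing of inflammatory mRNAs, had 1135, 1114, 743 and 721 normalized counts. Its MPP2 to ST-HSC ratio was 0.654 in ethanol (95% counting interval 0.638 to 0.670) and 0.647 in 4OHT (0.630 to 0.664). The ST-HSC pair and the MPP2 pair did not overlap, and within each pair the values were close. Rpl24, whose loss gives the Belly spot and tail mouse, had 289, 295, 197 and 204, a ratio of 0.684 in ethanol (0.651 to 0.718). Rpl36 had 233, 233, 160 and 149, a ratio of 0.689 (0.653 to 0.727). In each of these 3 genes the ST-HSC libraries were close to each other and both MPP2 libraries lay lower.

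Rpl26 (chr11:68901583-68906989, + strand), which binds the p53 mRNA besides its place in the large subunit, had 62.9, 59.8, 30.7 and 23.3 normalized counts. Its ratio was 0.488 in ethanol (0.434 to 0.548) and 0.390 in 4OHT (0.341 to 0.447). A near-copy in the table, Gm15772, held 344, 334, 279 and 270 normalized counts and shares 45.9% of the 31-base words of Rpl26, so reads could be split between the pair. Summed over both, the log2 difference was −0.39 in ethanol and −0.42 in 4OHT, near the median of the family, and the value for Rpl26 alone is uncertain.

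Among the genes nearest to level in ethanol were Rpl23, Rpl10, Rpl38 and Rps4x. Rpl23, one of the proteins that bind MDM2, had 449, 409, 428 and 382 normalized counts. Its MPP2 ethanol value lay between the ST-HSC values, and its ratio in ethanol was 0.951 (0.918 to 0.986). Rpl10, which completes the late-maturing large subunit, had 964, 1047, 861 and 801, a ratio of 0.893 (0.871 to 0.915). Rpl38, known for its part in the translation of Hox mRNAs in the mouse embryo, had 292, 300, 256 and 203, a ratio of 0.876 (0.838 to 0.917) in ethanol and of 0.677 (0.644 to 0.712) in 4OHT. Rps4x, of the small subunit, had 788, 806, 686 and 610. In Rpl10, Rpl38 and Rps4x the MPP2 4OHT library was the lowest of the 4.

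A fit over all 4 libraries, with cell type and treatment as additive terms, was made across the 11370 tested genes with limma, with 1 residual degree of freedom per gene. At an adjusted p under 0.05 it called 4 of 77 ribosomal protein genes lower in MPP2 (5.19%) and 0 higher. The background was 5.31% lower and 9.88% higher, so at these settings the share of lower calls is near the background. An unadjusted p under 0.05 was found for 49 of the 77, all lower, and for 37.7% of all tested genes in either direction. Rpl26 had a log2 difference of −1.18 ± 0.14 (SE, adjusted p = 0.0165, limma) and Rpl13a one of −0.62 ± 0.13 (adjusted p = 0.0406, limma). Rpl36 had −0.59 ± 0.13 (adjusted p = 0.0452, limma) and Rpl22 −0.58 ± 0.13 (adjusted p = 0.0499, limma). All 4 were lower in both MPP2 libraries than in both ST-HSC libraries, as were 75 of the 77 and 33.7% of all tested genes. The 4 were called from these same values, so this split is no further support. Over the alternative settings the adjusted p ran from 5.48e-06 to 0.0423 for Rpl26, from 0.000102 to 0.0763 for Rpl13a, from 0.000725 to 0.0826 for Rpl36 and from 0.00117 to 0.0888 for Rpl22.

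The count of calls depended on the tool and its settings. With a mean-variance trend limma called 60 of 77 lower (background 16.4%), edgeR's quasi-likelihood test 45 (background 14%) and DESeq2 35 (background 3.98%), and none of them called a member higher (backgrounds 16.7%, 16.5% and 8.74%). Without the trend, limma called 13 of 77 lower (16.9%, background 8.48%) with an added constant of 1 and 34 of 76 (44.7%, background 14.7%) with a required mean of at least 5, both above the background. The 2 treatments stand in for replicates here, so these p-values measure how alike the 2 cell type differences are and not the spread between mice.

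Genes with and without the C or T run printed above had similar differences between cell types. The run does not stand for the TOP motif, since it may lie before the start. The 19 genes with a run over the annotated start had a median log2 difference of −0.33 in ethanol and −0.47 in 4OHT, and the 38 with a window but no run had −0.36 and −0.46. Rpl34 and Rpl35, with runs of 20 and 18 bases, had −0.42 and −0.37 in ethanol, and Rpl24, with none, −0.55.

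The question of what 4OHT, which switches on the fusion, goes with was addressed within each cell type. All 4 groups share the model's alleles, so effects of 4OHT itself and of the fusion cannot be told apart. In ST-HSC colonies ribosomal protein mRNA was nearly level with 4OHT. The median log2 difference was 0.02 against 0.00 for all tested genes, 27 of 77 genes lay below 0 (35.1%, against 50.6% of all tested genes), and none was 2-fold higher (background 2.1%) or lower (background 0.545%). The counting interval lay above 1 in 23 genes, or 29.9% against a background of 18.8%, and below 1 in 11 genes, or 14.3% against 20%. The members' higher read counts narrow their intervals, so this background is not a like one. The standard deviation over the 77 genes was 0.09 log2 units, against 0.38 over all tested genes. Over genes outside the family with a mean of at least 100 it was 0.23.

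The highest ST-HSC differences were those of Rpl30, Rpl34, Rpl27, Rpl15 and Rplp2. Rpl27, a large subunit protein, had 319 normalized counts in ethanol and 356 in 4OHT, a ratio of 1.12 (1.07 to 1.16). Rpl15, a core protein of the large subunit, had 820 and 899, a ratio of 1.10 (1.07 to 1.12). The lowest were Rps27, Rpl17, Rpl23, Rpl5 and Rpl12. Rpl17, which lines the exit tunnel, had 449 and 390, a ratio of 0.869 (0.838 to 0.901). Rpl5, which carries 5S rRNA, had 659 and 601, a ratio of 0.912 (0.886 to 0.940). Rpl12, at the base of the stalk, had 706 and 657, a ratio of 0.930 (0.904 to 0.957). Both ends of the list thus lay close to level, and Rps27 rests on 34 and 25 reads.

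In MPP2 colonies most ribosomal protein mRNAs were slightly lower with 4OHT. The median log2 difference was −0.11 against 0.00 for all tested genes, 62 of 77 genes lay below 0 (80.5%, against 50.2%), and none was 2-fold higher (background 1.32%) or lower (background 1.7%). The counting interval lay below 1 in 54 genes, or 70.1%, and above 1 in 6, or 7.79%, where the background was 23.9% each way. As in ST-HSC, the background genes mostly had fewer reads and so wider intervals. The standard deviation over the genes was 0.12 log2 units, against 0.41 over all tested genes. Over genes outside the family with a mean of at least 100 it was 0.27. Red cell marker RNA was 112 and 7.22, mast cell and basophil marker RNA 1424 and 472, and macrophage marker RNA 499 and 1217 in the same pair of libraries, and their part in the difference was not tested.

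The lowest MPP2 differences were those of Rpl26, Rpl36a, Rpl38, Rps15a and Rpl34. Rpl36a, an X-linked gene, had 137 normalized counts in ethanol and 108 in 4OHT, a ratio of 0.788 (0.734 to 0.846). Rpl38 had 256 and 203, a ratio of 0.794 (0.754 to 0.836), and Rps15a, a small subunit protein, had 260 and 213, a ratio of 0.818 (0.778 to 0.861). At the other end stood Rpl30, Rps27, Rpl19, Rps19 and Rplp0. Rpl19, which forms a bridge between the subunits, had 562 and 627, a ratio of 1.12 (1.08 to 1.15). Rps19, the gene most often mutated in Diamond-Blackfan anaemia, had 418 and 453, a ratio of 1.09 (1.05 to 1.13). Genes of both subunits were found at both ends.

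The 4OHT difference was lower in MPP2 than in ST-HSC in 65 of 77 genes (84.4%), against 51.7% of all tested genes, with a median gap of −0.12 log2 units against −0.01 for all. With 1 library per group this gap was not tested. The widest gaps below 0 were those of Rpl34 (−0.48), Rpl38 (−0.37) and Rpl36a (−0.35), and those above 0 of Rps27 (0.54), Rps19 (0.08) and Rpl30 (0.06). In 36 genes 4OHT was the higher of the ST-HSC libraries, ethanol the higher of the MPP2 libraries, and both ST-HSC libraries were on top. With both ST-HSC libraries again on top, ethanol was the higher in both pairs in 25 genes and 4OHT in both pairs in 14. These orders were not counted over all tested genes, so the counts describe the family only.

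**Figure D3:**
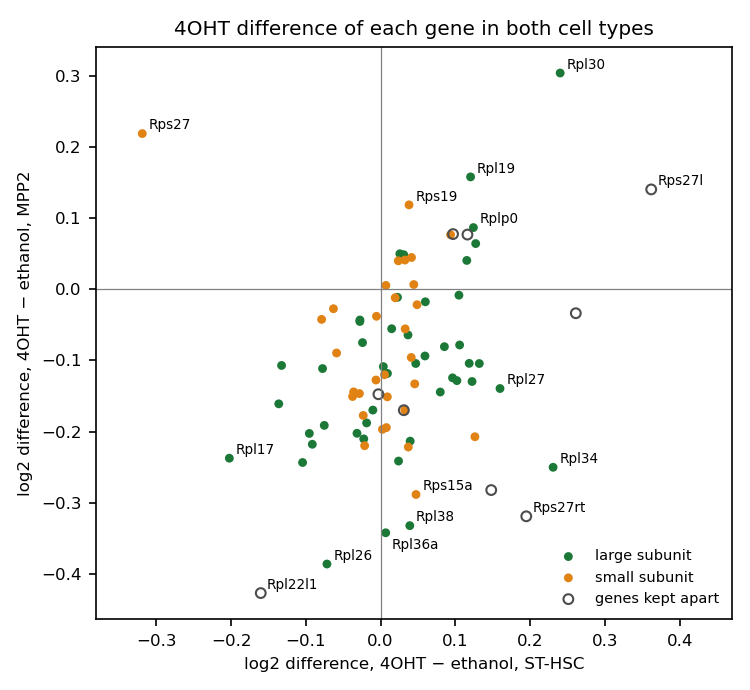
Log2 difference between 4OHT and ethanol of each gene in ST-HSC colonies (horizontal) and in MPP2 colonies (vertical), with large subunit genes in green, small subunit genes in orange and the genes kept apart as open circles; Rps4l (1.02 and −1.60) lies outside the axes. Most points lie close to 0 on the horizontal axis and below 0 on the vertical axis, where the median is −0.11.

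A shared 4OHT effect was looked for in the same limma fit. It called 0 of 77 ribosomal protein genes in either direction, and 0 had an unadjusted p under 0.05, with a lowest adjusted p of 0.425 for Rpl30. Over all tested genes 0.044% were called higher and 0.0088% lower. limma with trend, edgeR and DESeq2 also called 0 of 77, with 0 at an unadjusted p under 0.05. Their background of calls was 2.96%, 2.47% and 1.09% higher and 2.3%, 1.86% and 0.383% lower. A miss of the threshold does not show that the levels were equal. The shared effect is the mean of the 2 4OHT differences, and their gap enters the residual. Differences of opposite sign therefore cancel, as in the 36 genes above that were higher with 4OHT in ST-HSC and lower in MPP2. Such genes can hardly be called by this fit.

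The stalk proteins Rplp0, Rplp1 and Rplp2, which recruit elongation factors, all had counting intervals above 1 with 4OHT in ST-HSC. Their ratios were 1.09 (1.07 to 1.11), 1.09 (1.06 to 1.12) and 1.09 (1.05 to 1.13). Intervals above 1 were found in 29.9% of the whole family and 18.8% of all tested genes, and they cover counting error only. Rplp1 had 694, 755, 596 and 545 normalized counts and Rplp2 had 416, 455, 334 and 349. In MPP2 colonies Rplp1 was lower with 4OHT, at a ratio of 0.914 (0.885 to 0.944), while Rplp0 and Rplp2 were at 1.06 (1.04 to 1.08) and 1.05 (1.00 to 1.09). Between cell types all 3 were lower in MPP2, with a median log2 difference of −0.28 in ethanol and −0.38 in 4OHT. None of the 3 was called by limma for either term. For cell type limma with trend called Rplp1 and Rplp2 lower, edgeR Rplp2 alone and DESeq2 0 of 3. Over the whole family these tools called 77.9%, 58.4% and 45.5% lower.

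Rpl5, Rpl11, Rpl23, Rpl26 and Rps7 can bind MDM2 when ribosome assembly is disturbed and so release p53. With 4OHT their counting intervals lay below 1 in 5 of 5 in MPP2 and in 2 of 5 in ST-HSC, with median log2 differences of −0.16 and −0.07. Over the whole family those shares were 70.1% and 14.3%, and over all tested genes 23.9% and 20%. One of the 5 is Rpl26, whose MPP2 value was −0.39 alone and −0.08 with its near-copy added. Rpl11, the partner of Rpl5 on 5S rRNA, had 459, 479, 338 and 316 normalized counts, and Rps7, of the small subunit, had 485, 486, 385 and 336. In both the ST-HSC pair was nearly level and the MPP2 4OHT library was the lowest. Between cell types the median was −0.40 in ethanol and −0.53 in 4OHT, and limma called Rpl26 alone, lower. Each of limma with trend, edgeR and DESeq2 called 4 of the 5 lower, all but Rpl23. Over the whole family they called 77.9%, 58.4% and 45.5% lower.

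The 20 genes known from Diamond-Blackfan anaemia had median log2 differences of 0.01 with 4OHT in ST-HSC, −0.14 with 4OHT in MPP2, −0.32 between cell types in ethanol and −0.46 in 4OHT. Of these, 17 of 20 lay below 0 with 4OHT in MPP2 and 20 of 20 between cell types in ethanol. Over the whole family those shares were 80.5% and 100%, and over all tested genes 50.2% and 54%. Rps24 and Rps26, both of the small subunit, stood at 560, 551, 472 and 417 and at 538, 524, 423 and 381 normalized counts. In each of them the MPP2 4OHT library was the lowest. limma called Rpl26 alone of the 20 lower in MPP2, limma with trend 16, edgeR 11 and DESeq2 8. Over the whole family the shares called lower were 5.19%, 77.9%, 58.4% and 45.5%, in the same order of tools. Over all tested genes they were 5.31%, 16.4%, 14% and 3.98%. The list has 2 members outweighed by copies, Rpl26 and Rps27, and overlaps the MDM2 binders in Rpl5, Rpl11, Rpl26 and Rps7.

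The 4 X-linked genes, Rpl10, Rpl36a, Rpl39 and Rps4x, were lower in both MPP2 libraries, with medians of −0.23 in ethanol and −0.49 in 4OHT, against −0.34 and −0.45 for the 73 autosomal genes. With 4OHT in MPP2 their median was −0.19, against −0.11 for the autosomal genes. Many ribosomal protein genes carry small nucleolar RNAs in their introns, and 30 of the 77 had a small RNA gene inside them in GENCODE M21. The hosts had medians of 0.00, −0.11, −0.36 and −0.44 for 4OHT in ST-HSC, 4OHT in MPP2 and the cell types in ethanol and in 4OHT, and the 47 others had 0.03, −0.12, −0.33 and −0.47.

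The genes kept apart were lower in both MPP2 libraries too, in 10 of 10, against 33.7% of all tested genes. Some are pseudogenes or near-copies, whose reads may come from their parents. Rps27l, a p53-responsive paralog of Rps27, had 86.2, 111, 62.7 and 69.2 normalized counts, with a 4OHT ratio of 1.29 in ST-HSC colonies (1.19 to 1.39) and 1.10 in MPP2 colonies (1.00 to 1.21). In both pairs the 4OHT library was the higher. Rpl22l1, a paralog that can stand in for Rpl22, had 49.9, 44.6, 40.2 and 29.8, with 4OHT ratios of 0.894 (0.802 to 0.997) and 0.741 (0.648 to 0.846). Its parent Rpl22 had 116, 114, 82.7 and 71.4, and the paralog made up 30.1%, 28.1%, 32.7% and 29.4% of their sum. limma called neither Rps27l nor Rpl22l1, and their adjusted p was 0.0530 and 0.0894 for cell type and 0.487 and 0.434 for 4OHT. For cell type Rps27l was called lower under 5 alternative settings, limma with trend, edgeR and DESeq2 among them, and Rpl22l1 under 3, limma with trend and edgeR among them.

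Rps4l, an autosomal paralog of Rps4x, was the only one of the 87 past 2-fold with 4OHT. It had 3.69, 7.98, 3.68 and 0.882 normalized counts from 53, 111, 51 and 11 reads. Its 4OHT ratio was 2.16 in ST-HSC colonies (1.55 to 3.06) and 0.240 in MPP2 colonies (0.113 to 0.466), opposite directions. Its parent Rps4x, at 788, 806, 686 and 610, was nearly level in the first pair and lower in the second. Rpl7l1, a paralog of Rpl7, had 135, 144, 101 and 107, Rpl36al had 126, 125, 105 and 94.99, and Rps19bp1, a partner protein of Rps19, had 19.1, 20.8, 14.5 and 15.3. Rpl7, at 758, 778, 655 and 627, Rpl36a and Rps19 were lower in MPP2 as well. The pseudogenes Rps15a-ps4 and Rps15a-ps6 had 14.9 to 25.9 and 2.81 to 4.599 normalized counts, and their reads may come from Rps15a. The paralogs Rpl39l and Rpl3l, known from testis and from muscle, stood at 0.791 or below in every library.

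Reads of these genes can be shared with near-copies. In 4 members a copy that also passed the level held more reads than the member itself. Rps27 had 2.36, 1.80, 1.52 and 1.85 normalized counts (34, 25, 21 and 23 reads) while its retrotransposed copy Rps27rt had 225, 258, 215 and 172 normalized counts, and the pair cannot be separated here. Rpl34 had 78.4, 92.1, 58.6 and 49.2 and its copy Rpl34-ps1 had 266, 272, 221 and 196. Rpl30 had 28.6, 33.8, 19.99 and 24.8 and its copy Gm12191 had 286, 301, 268 and 229. These copies carry most of the reads, so the extreme places of Rpl30, Rpl34, Rps27 and Rpl26 in the lists above are uncertain. With the copies' reads added, the 4OHT log2 difference of Rpl30 was 0.09 in ST-HSC and −0.18 in MPP2, and that of Rpl34 0.08 and −0.19. The MPP2 value of Rpl30 thereby turned from above to below 0. That of Rps27 went from 0.22 to −0.31 in MPP2 and from −0.32 to 0.19 in ST-HSC, and that of Rpl26 in MPP2 from −0.39 to −0.08. The 18 genes that share under 25% of their 31-base words with any other gene had medians of 0.04, −0.13, −0.34 and −0.45. The 59 others were close, at 0.02, −0.11, −0.34 and −0.46. Among these 59, Rpl36 shares 94% of its words, Rpl36a 87.6%, Rpl24 82.2%, Rpl10 75.8% and Rpl19 75.3%. Single values of such genes are uncertain too, and their counting intervals do not cover this.

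Genes that work beside the family were also lower in MPP2. Fau, which encodes a small subunit protein fused to a ubiquitin-like part, had 577, 566, 487 and 492 normalized counts. Rack1, a scaffold on the small subunit listed under its older symbol Gnb2l1, had 1120, 1225, 861 and 890. In both genes the ST-HSC libraries were above the MPP2 libraries, and limma called neither. The other 3 tools each called Gnb2l1 lower in MPP2 and did not call Fau. Of 15 other TOP mRNAs of translation, 15 lay below 0 in both cell type comparisons, with medians of −0.28 and −0.52, and limma called 1, Eef1g, at −0.67 ± 0.13 (SE, adjusted p = 0.0388). Limma with trend and edgeR each called 8 of the 15 lower in MPP2 and DESeq2 6. The backgrounds of lower calls were 5.31% in limma, 16.4% with trend, 14% in edgeR and 3.98% in DESeq2. Of all tested genes 54% lay below 0 in ethanol and 51.8% in 4OHT. Eef1g, a subunit of elongation factor 1, had 766, 906, 513 and 538. Eef1a1, the carrier of aminoacyl-tRNA, had 5391, 5735, 4806 and 4356, and Tpt1, the translationally controlled tumour protein, was level in ethanol at 928, 871, 927 and 821. Npm1, a nucleolar chaperone of ribosome assembly, had 732, 750, 522 and 344.

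The proteins of the mitochondrial ribosome, which are encoded by other nuclear genes, showed a like difference. Of 77 tested, 76 were lower in MPP2 in ethanol and 77 in 4OHT, with medians of −0.42 and −0.53, and limma called 23 lower and 0 higher (backgrounds 5.31% and 9.88%). Limma with trend called 52 lower, edgeR 49 and DESeq2 10 (backgrounds 16.4%, 14% and 3.98%). Mrpl12, a protein of the large mitochondrial subunit, had 95.4, 109, 49.0 and 54.9 normalized counts. With 4OHT their median was 0.08 in ST-HSC and 0.00 in MPP2, where the cytosolic family had 0.02 and −0.11. Of the 9 regulators of TOP mRNAs, limma called 0 for either term. The other 3 tools each called Eif4e, Larp1 and Larp4 lower in MPP2, 3 of the 9, with the backgrounds just given. Limma with trend also called Larp4 lower with 4OHT (background 2.3%). Larp1 had 379, 401, 284 and 301, lower in MPP2, and Mtor had 85.5, 80.6, 77.2 and 88.4, with the MPP2 4OHT library the highest.

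Part of the difference moved with transcript length. Genes outside the family but within its central range of length, 488 to 1129 bases, numbered 2199 and had medians of −0.10 in ethanol and −0.10 in 4OHT. The 250 of them that also had the family's GC content (47.9 to 57.04%) and a mean of at least 100 normalized counts had −0.11 and 0.01. After the trend of the difference with transcript length was removed in 20 bins, the family's median was −0.23 in ethanol and −0.35 in 4OHT. After the trend with GC content was removed it was −0.27 and −0.44. Mast cell, megakaryocyte and red cell marker RNA, listed above, also differed between the cell types, and so did sex-linked RNA. Of 6 neutrophil markers, limma called Camp, Ltf and Ngp higher in MPP2 and Elane and Mpo lower. Of 6 macrophage markers it called Cd68 and Gpnmb higher. The backgrounds were 9.88% higher and 5.31% lower. The part of these marker and sex-linked RNAs in the family's difference was not tested.

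**Figure D4:**
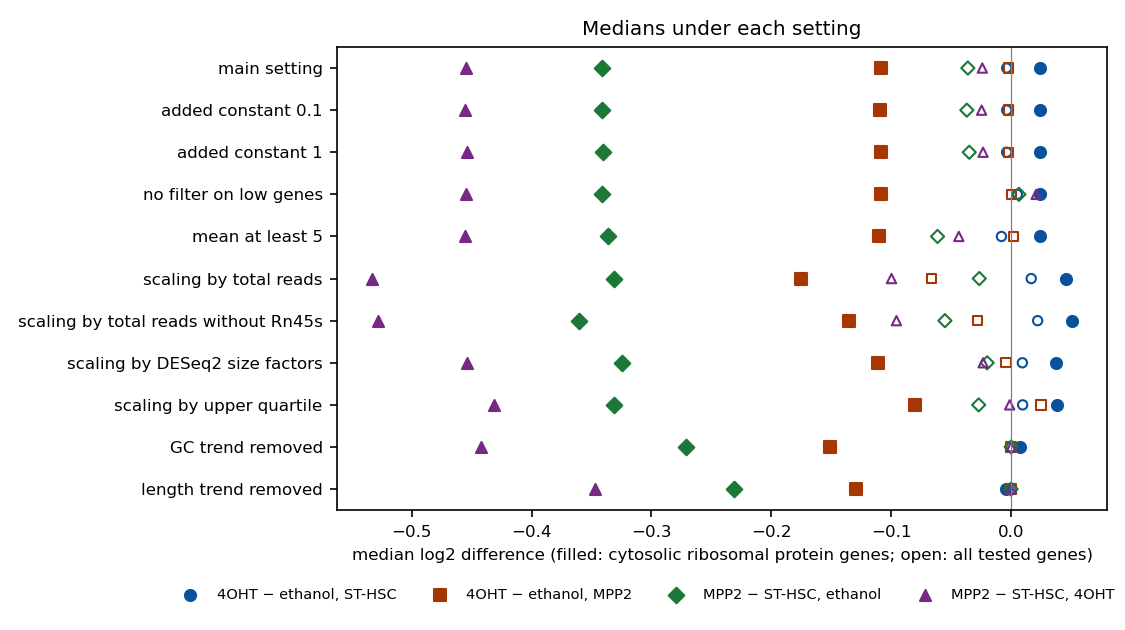
Median log2 difference under each setting for 4 pairs of libraries, with filled symbols for the 77 cytosolic ribosomal protein genes and open symbols for all tested genes. The filled diamonds and triangles (MPP2 minus ST-HSC) stay between −0.53 and −0.23 under every setting shown, and the filled squares (4OHT in MPP2) between −0.17 and −0.08.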

How the data were processed

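Total RNA of colony cells, 200 ng per library, was depleted of rRNA and made into strand-specific libraries, per the labels' protocols. Per the submitters' processing notes the build was mm10 and the tools included edgeR, RSEM, Bowtie2 and Trimmomatic 0.36, while their order and the annotation were not stated. The deposited values are a signal: counts scaled by the authors to an effective library size. They are whole multiples of a smallest step, 0.0695 to 0.0802 per read, from which whole reads were recovered, and they equal reads over the TMM-scaled library size of edgeR. The lowest summed count of a row was 4 reads.

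Tested genes had a mean of at least 1 normalized count. Log2 differences were taken after adding 0.5, which shrinks those of low genes. Ratios are of the values themselves, with exact conditional binomial 95% intervals on recovered reads, which cover counting error only. Called means an adjusted p under 0.05 (Benjamini-Hochberg over all tested genes) in limma's additive fit, and 2-fold means a log2 difference of 1. Position, length, GC content, inner small RNA genes and shared 31-base words are from GENCODE M21 (GRCm38), matched by symbol for 77 of 77 genes and 96.2% of tested genes. Promoter windows are from RefSeq.

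The members and gene lists were chosen with earlier results of these data known. Named genes are the 5 highest and 5 lowest per comparison, the 3 widest gaps each way, called genes, the extremes per kilobase, every gene kept apart with its parent, and examples of each list. Alternatives were other constants, filters, scalings, trend removal and tools, and, chosen after seeing the data, leaving out outweighed members or adding their copies' reads. limma without trend and edgeR were tested on simulated data, for the 4OHT term only. limma with trend, DESeq2 and the cell type term were not. The fits used DESeq2 1.42.0, edgeR 4.0.16 and limma 3.58.1 in R 4.3.3, and the other steps scipy 1.17.1, pandas 2.3.3, numpy 2.4.6 and matplotlib 3.10.9 in Python 3.11.15. A few genes are not reported here by name, though they are counted in the totals.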

Additional observations from a re-analysis of the deposited data

Results flagged for a closer look

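In 15 of the 87 genes the counting interval of the 4OHT ratio lay above 1 in ST-HSC colonies and below 1 in MPP2 colonies, opposite directions, and 14 of them are given here. That is 17.2% of the 87, against 1.86% of all tested genes. The reverse pattern was found in 0 of the 87 and in 3.5% of all tested genes. Most members have more reads than most tested genes, so their intervals exclude 1 at smaller differences. The shares of all tested genes are therefore not a like background, and shares at a like level were not counted. With 1 library per group the difference was not tested. The gap between the log2 differences, MPP2 minus ST-HSC, was −2.61 for Rps4l, −0.51 for Rps27rt, −0.48 for Rpl34, −0.33 for Rps15, −0.30 for Rpl27 and −0.25 for Rplp1. It was −0.24 for Rpl15, −0.23 for Rpl6, −0.22 for Rpl10 and Rpl27a, −0.18 for Rpl18, −0.17 for Rpl28 and −0.15 for Rpl10a and Rpl11. Rps15, a small subunit protein, had 529 and 577 normalized counts in ST-HSC and 460 and 398 in MPP2. Rps4l rests on 11 to 111 reads, and Rps27rt and Rpl34 share sequence with other members.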

How the results depend on the processing

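The lower median in MPP2 kept its sign under every setting run. It moved in ethanol from −0.34 to −0.27 with the GC trend removed and −0.23 with the length trend removed. In 4OHT it moved from −0.45 to −0.35 with the length trend removed, and to −0.53 with scaling by total reads, with or without Rn45s. The 4OHT median in MPP2 moved from −0.11 to −0.17 with scaling by total reads, and that in ST-HSC ran from −0.00 to 0.05. The number of ribosomal protein genes called lower in MPP2 was 4 in limma (background 5.31%). It was 1 with a constant of 0.1 (1.57%), with no filter (0.482%) and with the GC (2.93%) or length (1.97%) trend removed, and 2 with scaling by total reads (3.76%) or DESeq2 size factors (3.47%). It was 13 with a constant of 1 (8.48%), 34 with a mean of at least 5 (14.7%), 35 in DESeq2, 45 in edgeR and 60 in limma with trend. The cause was not tested. The shared 4OHT effect gave 0 calls under every setting, with a lowest adjusted p from 0.326 to 0.997.

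Without Rn45s the family's shares of reads were 5.17%, 5.34%, 4.05% and 3.77%. They were 4.92%, 5.07%, 3.94% and 3.56% with the genes kept apart. The alternative that adds ribosomal proteins outside the symbol rule is not reported here. Of 1508 pair values of 38 named genes 1333 stayed within their error and 175 moved, and of 982 fitted values 76 gained and 18 lost their call, with none reversed. No paired analysis was possible because each group is 1 library, and the additive fit already compares the cell types within each treatment. Leaving out a library leaves the additive fit no residual degree of freedom, so it was not run.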
